A study of Mus musculus with 8 samples.

Results

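Metallothioneins and iron handling genes were followed as 10 genes of the 32227 in the count tables, found by symbol. They are Mt1 and Mt2 (metallothioneins), Hamp (hepcidin), Slc40a1 (ferroportin), Cp (ceruloplasmin), Fth1 and Ftl1 (ferritin heavy and light chains), Tfrc (transferrin receptor), Slc11a1 (NRAMP1) and Hmox1 (heme oxygenase 1). Their unique molecular identifiers (UMIs, each standing for 1 captured transcript) were summed per library over cells gated by marker genes as microglia, macrophages, monocytes, neutrophils, dendritic cells, B-cells, T-cells, natural killer cells (NKs), endothelial cells or mural cells.

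Metallothioneins are small cysteine-rich proteins that bind zinc and copper and are induced by metals, glucocorticoids and inflammatory signals. Cells take up transferrin-bound iron through Tfrc, store it in ferritin shells built of heavy and light chains, release it from heme with Hmox1, and export it through ferroportin with the help of the ferroxidase ceruloplasmin. Hepcidin is a peptide hormone, made mainly by the liver, that binds ferroportin and causes its degradation, and during inflammation this retains iron in macrophages. Iron regulatory proteins bind a hairpin, the iron-responsive element, at the 5′ end of ferritin and ferroportin messages, where it controls translation, and at the 3′ end of the Tfrc message, where it controls stability.

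The data are single-cell RNA counts from the brains of 8 male C57Bl/6J mice, 1 library per mouse. The labels give their age as 5 to 6 months, and the methods of the study give another range. The mice were injected intraperitoneally with saline or with the bacterial endotoxin lipopolysaccharide (LPS, 15000000 EU/kg), and unperfused brains were collected 24 h later. Each brain was dissociated either with the vehicle DMSO or with anisomycin, actinomycin D and triptolide, which block translation and transcription, and CD45-bearing cells were enriched on magnetic beads before capture with the PIPseq T20 kit. The 4 groups, named by injection and then by dissociation (saline DMSO, saline inhibitors and the same for LPS), held 2 mice each, and replicate 1 and replicate 2 were captured on different days, which the labels call the batch. Because the brains were not perfused, blood cells within vessels were among the cells collected.

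The libraries held 90352359 to 141182123 UMIs, and 119053 barcodes passed the limits of at least 800 and under 45000 UMIs, at least 250 and under 6500 genes and under 5% mitochondrial UMIs. Of these, 88026 were gated as microglia, 2955 as macrophages, 3789 as monocytes, 1737 as neutrophils, 324 as dendritic cells, 1288 as B-cells, 937 as T-cells, 466 as NKs, 1148 as endothelial cells and 290 as mural cells. The median depth was 2207 to 3161 UMIs per cell in saline libraries and 4149 to 4763 in LPS libraries. The summed markers of microglia fell within that class from 46885 to 49496 counts per 1000000 UMIs (CPM) in saline libraries to 7985 to 9196 CPM in LPS libraries, while 12 of its 14 markers remained above 20 CPM. Barcodes of 1 to 99 UMIs, taken as free RNA, held 15.5% to 33.7% of each library's UMIs, and the choroid plexus transcript Ttr put the free RNA at 2.91% to 11.6% of the UMIs of each class in LPS libraries and at 3.56% to 21.3% in saline libraries. Pairs of libraries shared 0 to 25 cell barcodes. The mural class of LPS DMSO replicate 2 held 9 cells and was left out of the mural values and tests.

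The promoters of both metallothioneins and of hepcidin are shown because they hold letters of motifs that metals, steroids, BMPs and cytokines are known to act through. RefSeq promoters (assembly GRCm38.p6, 250 bases before to 50 after each start) matched 8 of the 10 genes. Of each promoter printed here, the last 20 bases are left off. The Mt1 promoter (chr8:94178839-94179118, plus strand) is shown with the metal response core (TGCACNC or TGCGCNC) and the glucocorticoid response motif (GNACA and TGTNC, 3 bases apart) in capitals, the Mt2 promoter (chr8:94172368-94172647, plus strand) with the metal response core in capitals, and the Hamp promoter (chr7:30944000-30944279, minus strand) with the BMP response core (GGCGCC) and the interferon-gamma activated site (TTCNNNGAA) in capitals. All motifs were searched on both strands.
Mt1 promoter: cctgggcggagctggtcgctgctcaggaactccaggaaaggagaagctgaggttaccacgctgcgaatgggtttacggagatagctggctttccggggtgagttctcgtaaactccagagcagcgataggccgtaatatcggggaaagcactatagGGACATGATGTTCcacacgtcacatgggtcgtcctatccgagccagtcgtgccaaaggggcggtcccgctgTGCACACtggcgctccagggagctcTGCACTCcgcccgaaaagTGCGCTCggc
Mt2 promoter: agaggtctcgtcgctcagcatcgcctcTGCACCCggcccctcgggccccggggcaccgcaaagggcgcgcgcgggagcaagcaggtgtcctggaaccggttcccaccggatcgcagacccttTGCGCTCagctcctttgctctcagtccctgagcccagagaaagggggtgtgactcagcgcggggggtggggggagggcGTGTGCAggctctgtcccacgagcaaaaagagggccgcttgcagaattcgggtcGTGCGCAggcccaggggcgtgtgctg
Hamp promoter: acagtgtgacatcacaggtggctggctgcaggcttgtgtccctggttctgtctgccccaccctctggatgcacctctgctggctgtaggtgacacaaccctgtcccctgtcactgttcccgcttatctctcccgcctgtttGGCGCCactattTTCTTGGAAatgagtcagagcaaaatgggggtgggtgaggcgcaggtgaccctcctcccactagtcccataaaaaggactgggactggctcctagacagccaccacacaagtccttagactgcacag
The metal response core occurred 3 times in the Mt1 promoter and 4 times in that of Mt2, and 1.97% of the 32851 mouse promoters searched held 3 or more. At least 1 match was far more common, at 25.7% of promoters. The Mt1 promoter held the glucocorticoid motif as GGACATGATGTTC at position -94 from the start, a motif found in 0.475% of promoters. The Hamp promoter held TTCTTGGAA at -97 and GGCGCC at -109, letters found in 8.30% and 11.9% of promoters. Tfrc held GGCGCC once and the metal response core at 2 positions that overlap each other, and the antioxidant core TGACNNNGC, present in 12.4% of promoters, occurred once in Mt2 and in no other promoter of these genes that was searched. Those of Cp, Fth1, Ftl1 and Slc11a1 held none of the motifs searched.

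The hairpins of the iron-responsive element are shown because they part the iron genes into messages with the element before the coding sequence and a message with it after. The letters searched were a C, 5 bases that pair with 5 bases beyond the loop, and the loop CAGTGN, which is in capitals, within runs of 27 bases. In GENCODE transcripts of build GRCm38, Fth1 (chr19:9982733-9982759, plus strand), Ftl1 (chr7:45459780-45459806, minus strand) and Slc40a1 (chr1:45925466-45925492, minus strand) held 1 each in the 5′ untranslated exon sequence. Tfrc held 4 in its 3′ untranslated exon (chr16:32631220-32631246, chr16:32631599-32631625, chr16:32631664-32631690 and chr16:32631711-32631737, plus strand).
Fth1 hairpin: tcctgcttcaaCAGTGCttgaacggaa
Ftl1 hairpin: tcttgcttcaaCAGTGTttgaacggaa
Slc40a1 hairpin: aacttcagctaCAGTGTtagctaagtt
Tfrc hairpin 1: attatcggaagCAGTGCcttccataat
Tfrc hairpin 2: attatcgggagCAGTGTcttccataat
Tfrc hairpin 3: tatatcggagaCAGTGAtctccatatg
Tfrc hairpin 4: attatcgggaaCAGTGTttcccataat
Such a hairpin occurred in the 5′ end of 27 of 21862 coding genes (0.124%) and in the 3′ end of 126 (0.576%).

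After LPS, Mt1 and Fth1 were called higher in each of the 10 classes, Mt2 in microglia, macrophages, monocytes and endothelial cells, and Cp in microglia, macrophages, monocytes, endothelial and mural cells. Slc40a1 was called lower in microglia and endothelial cells, and in neutrophils with overlapping groups and a call that several alternatives ended. In 16 other pairs of gene and class the level of edgeR's filter on low counts (10 UMIs in a library of median size) was reached in no library of one group. These are Mt2 in neutrophils, dendritic cells, B-cells, T-cells, NKs and mural cells, Cp in neutrophils, dendritic cells and T-cells, Hmox1 in neutrophils and endothelial cells, Hamp in dendritic cells, Slc40a1 in macrophages, monocytes and mural cells, and Tfrc in mural cells. They were tested because the other group was high, so they are given by their levels and UMIs, with no test. Hamp was found in dendritic cells of LPS mice. Ftl1, Tfrc, Slc11a1 and Hmox1 changed in some classes and not in others, and Tfrc was called higher in microglia, macrophages and monocytes and lower in endothelial cells. These changes are log2 fold changes of summed counts from edgeR's quasi-likelihood test, with ex vivo treatment as a covariate and Benjamini-Hochberg adjustment over all genes tested in the class, and a gene was called at an adjusted p under 0.05.

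**Figure D1:**
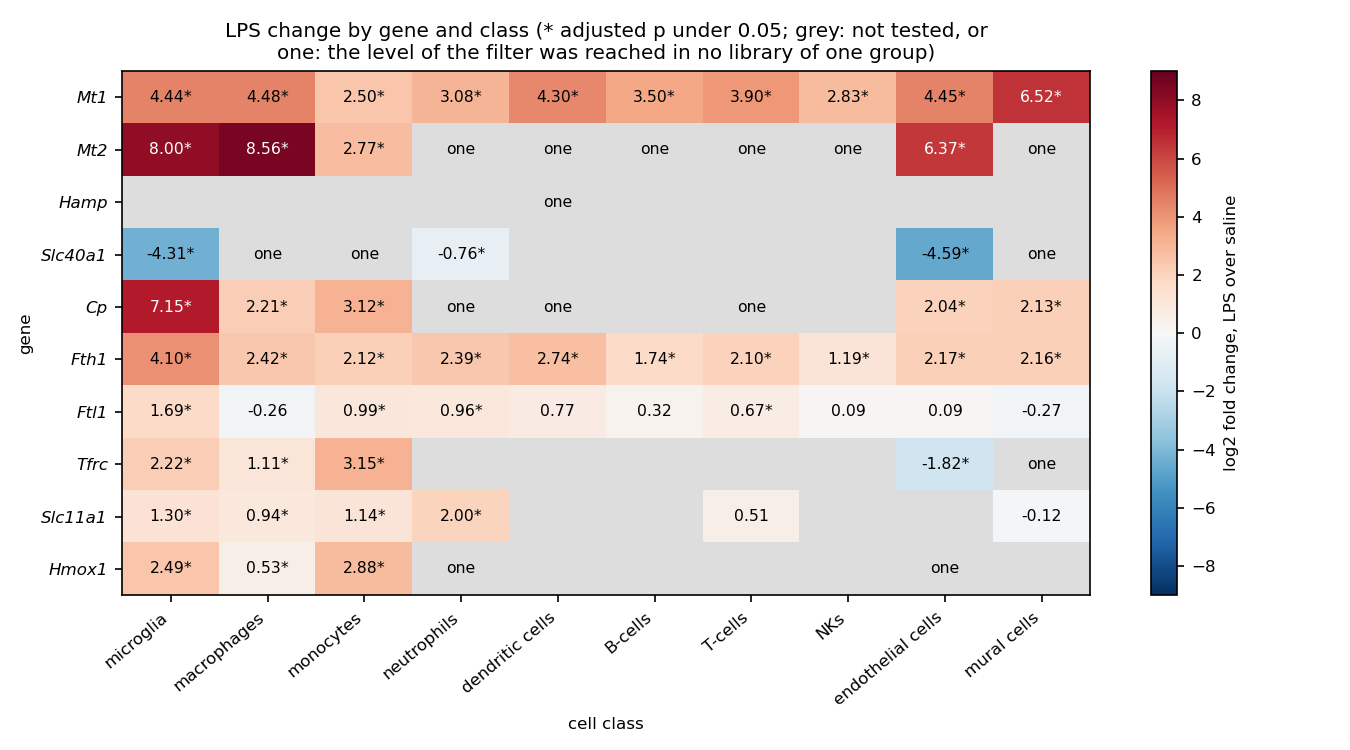
Log2 fold change of each gene (rows) after LPS in each cell class (columns), from edgeR fits over 8 libraries (7 for mural cells), with an asterisk at an adjusted p under 0.05 and grey where the gene did not pass the filter on low counts or, marked one, where its level was reached in no library of one group. The rows of Mt1 and Fth1 are higher in all 10 classes and that of Mt2 in the 4 drawn, Slc40a1 is lower in the 3 drawn, and Tfrc is higher in microglia, macrophages and monocytes but lower in endothelial cells.

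Of 100 pairs of gene and class, 71 passed edgeR's filter on low counts, and 62 of these were called, 55 higher and 7 lower. The 16 pairs named above are among them, so that a difference was built into some and these counts are a description only. In the other 55 pairs 47 were called, 43 higher and 4 lower. By class these were 9 of 9 in microglia (62.7% of all genes) and 7 of 8 in macrophages (49.2%). They were 8 of 8 in monocytes (33.4%), 5 of 5 in neutrophils (28.2%) and 6 of 7 in endothelial cells (39.5%). They were 3 of 5 in mural cells (10%) and 3 of 4 in T-cells (17.6%). In dendritic cells (39.5%), B-cells (14.3%) and NKs (20.7%) they were 2 of 3 each. No gene was left out of the shares of all genes on that ground. The counts by class that follow hold all pairs tested. The 16 pairs in them number 3 each in neutrophils, dendritic and mural cells, and 2 in T-cells. Macrophages, monocytes, B-cells, NKs and endothelial cells hold 1 each. In microglia 9 of the 9 genes tested were called, where 62.7% of all genes were, with 8 higher (29.1% of all genes) and 1 lower (33.6%). In macrophages 8 of 9 were called against 49.2% of all genes, 7 higher (24.3%) and 1 lower (24.9%). In monocytes 9 of 9 were called against 33.4%, 8 higher (16.4%) and 1 lower (17%). In neutrophils 8 of 8 were called against 28.2% of all genes, 7 higher (14.0%) and 1 lower (14.2%). In endothelial cells 7 of 8 were called against 39.5%, 5 higher (19.2%) and 2 lower (20.3%). In mural cells 5 of 8 were called against 10%, 4 higher (4.98%) and 1 lower (5.04%). In dendritic cells, B-cells, T-cells and NKs no gene of the 10 was called lower, where 19.9%, 7.33%, 9.10% and 11.5% of all genes were. In dendritic cells 5 of 6 were called higher, 3 of them (Mt2, Hamp and Cp) through LPS libraries alone, against 39.5% of all genes in either direction and 19.6% higher. In B-cells 3 of 4 were called higher, against 14.3% and 6.96%. In T-cells 5 of 6 were called higher, against 17.6% and 8.47%, and in NKs 3 of 4, against 20.7% and 9.28%.

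The levels given below are CPM, the UMIs of the gene scaled to the UMIs of the class in the library, whereas the fold changes are also scaled by edgeR's TMM factors. Scaling by total counts alone moved the median log2 fold change of all genes by -0.76 in microglia, -0.39 in macrophages, -0.22 in neutrophils and -0.15 to -0.0049 in the other classes, so log2 fold changes here sit above the ratio of the printed CPM, most in microglia. With total counts alone, the share of called genes that were higher went from 46.4% to 16.9% in microglia and from 49.3% to 25.8% in macrophages. No gene of the 10 that was called in a class changed direction there with total counts alone, and every call but that of Hmox1 in macrophages held.

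**Figure D2:**
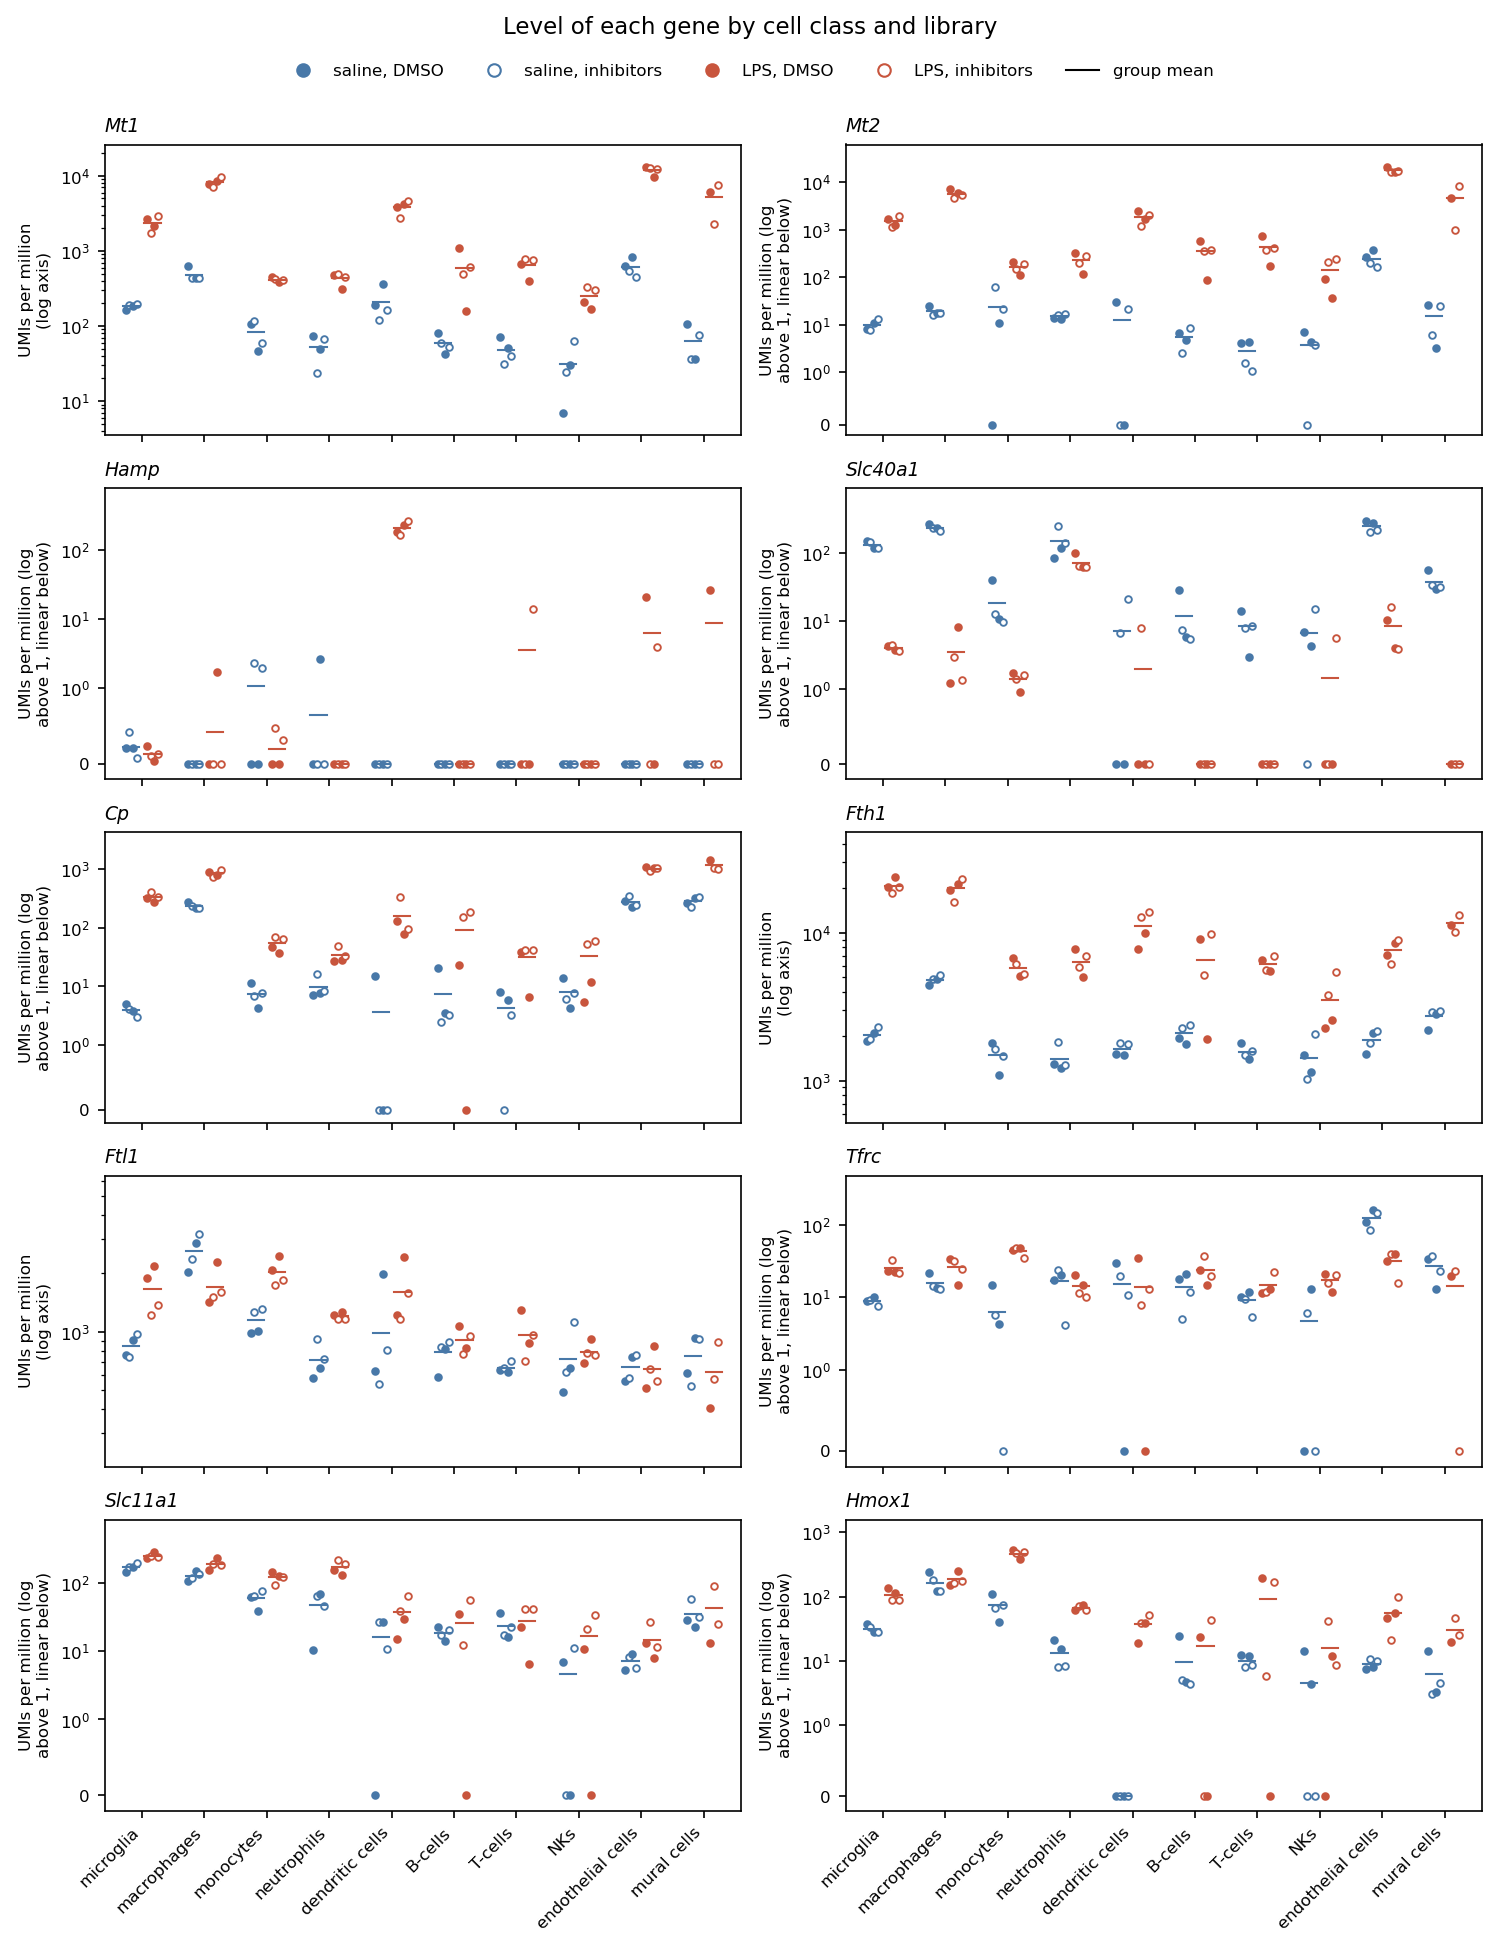
Level of each gene in CPM (vertical axes, logarithmic, or linear below 1 CPM where a library was at 0) in every cell class and library, with filled points for DMSO, open points for inhibitors, blue for saline, red for LPS and a bar at the mean of the group. The saline and LPS points of Mt1 part in all 10 classes, those of Slc40a1 part in microglia, macrophages, monocytes, endothelial and mural cells but overlap in neutrophils, and Hamp stands above 100 CPM in LPS dendritic cells alone.

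Metallothioneins rose in microglia. Mt1 measured 161 and 185 CPM in saline DMSO, 193 and 199 in saline inhibitors, 2639 and 2126 in LPS DMSO, and 1734 and 2889 in LPS inhibitors. Mt2 in the same libraries measured 8.07 and 10.7, 7.78 and 13.3, 1708 and 1228, and 1110 and 1970 CPM. For both genes the lowest LPS library lay far above the highest saline library. Both inhibitor libraries lay above both DMSO libraries for Mt1 in saline, and otherwise the DMSO and inhibitor libraries overlapped. The log2 fold change was 4.44 ± 0.25 (SE) for Mt1 (edgeR adjusted p = 1.2e-08) and 8.0 ± 0.36 for Mt2 (edgeR adjusted p = 1.9e-09). With every microglial cell thinned to 800 UMIs, Mt2 was detected in 0.58% to 0.94% of cells in saline libraries and in 39.9% to 55.3% in LPS libraries. Before thinning these shares were 2.07% to 2.23% and 71.0% to 84.5%, and the groups did not overlap in either case.

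Endothelial cells and macrophages had the highest mean levels of both metallothioneins after LPS. In macrophages Mt1 went from 627 and 441 CPM (saline DMSO) and 436 and 432 (saline inhibitors) to 7780 and 8588 (LPS DMSO) and 7132 and 9647 (LPS inhibitors), a log2 fold change of 4.48 ± 0.21. Mt2 went from 25.0, 17.6, 16.3 and 17.8 CPM to 7006, 5957, 4563 and 5287 CPM in the same order, a log2 fold change of 8.56 ± 0.23 (edgeR adjusted p = 5.6e-14). The groups did not overlap for either gene, and Mt2 was detected in 0.82% to 1.98% of thinned saline macrophages and in 89.0% to 94.0% after LPS. Endothelial Mt1 was 635, 823, 538 and 445 CPM in saline and 13079, 9545, 12595 and 12152 in LPS libraries (log2 fold change 4.45 ± 0.23). Endothelial Mt2 was 261, 366, 195 and 160 CPM in saline and 20615, 16046, 16555 and 17254 in LPS libraries (6.37 ± 0.27). The endothelial class already stood above all others for Mt2 in saline, and its 4 saline libraries did not overlap those of any other class.

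Monocytes, neutrophils and lymphocytes had lower metallothionein levels than macrophages after LPS. Monocyte Mt1 rose from 47.1 to 115 CPM across saline libraries to 391 to 445 CPM across LPS libraries (log2 fold change 2.50 ± 0.24, edgeR adjusted p = 2.6e-06), and neutrophil Mt1 from 24.0 to 73.5 to 309 to 491 CPM (3.08 ± 0.29). Monocyte Mt2 was 0 and 10.7, then 61.1 and 21.2 CPM in saline, and 213, 109, 151 and 192 CPM in LPS libraries (2.77 ± 0.42, edgeR adjusted p = 0.00014). Free RNA held 325 to 441 CPM of Mt1 in saline and 2165 to 3463 CPM in LPS libraries, and with the expected free RNA subtracted the Mt1 change was 2.35 in monocytes (edgeR adjusted p = 0.000789) and 4.57 in microglia (edgeR adjusted p = 1.1e-08). Free RNA held 58.7 to 106 CPM of Mt2 in saline and 1270 to 2153 CPM in LPS libraries, and when the expected free RNA was subtracted the monocyte change was 1.11 (edgeR adjusted p = 0.202) and was no longer called. The other metallothionein calls held with that subtraction, except that Mt2 in NKs no longer passed the filter. Mt2 in T-cells went from 1.08 to 4.38 CPM to 169 to 730 CPM (7 saline and 429 LPS UMIs), in B-cells from 2.49 to 8.57 to 87.0 to 587 CPM (16 and 231 UMIs), and in NKs from 0 to 6.97 to 35.8 to 246 CPM. The NK values rest on 3 saline and 148 LPS UMIs, a ratio of summed levels of 44.2 (95% exact interval 14.8 to 217, counting error only). All LPS libraries of these lymphocyte classes lay above their saline libraries, and LPS DMSO replicate 2 was the lowest of the 4 in each. Dendritic cell Mt1 rose from 119 to 358 CPM to 2763 to 4569 CPM (4.30 ± 0.29). The makeup of that class differed, with a UMI of the marker Ccr7 in 15 of 94 saline and 217 of 230 LPS cells. In cells with a Ccr7 UMI alone, Mt1 was 472, 1343, 0 and 163 CPM in saline libraries, on 1 to 6 cells each. It was 4113, 4594, 3015 and 4853 CPM there in LPS libraries. Mural Mt1 rose from 35.9 to 106 CPM to 2262, 6081 and 7524 CPM (6.52 ± 0.51), where choroid plexus markers summed to 1605 to 4367 CPM in saline and 462 to 1165 CPM in the 3 LPS libraries.

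Hepcidin was found in dendritic cells of LPS mice. Hamp UMIs in dendritic cells numbered 0 in each of the 4 saline libraries, 48 and 24 in LPS DMSO, and 21 and 41 in LPS inhibitors. These are 184, 235, 164 and 264 CPM in the 4 LPS libraries, which lay close together. Saline dendritic cells were 94 cells with 387744 UMIs in all, where 3 counts over the group would be 7.74 CPM. The pooled LPS level of 207 CPM was 26.8-fold above that. Because the LPS UMIs lay several to a cell, this is not a lower limit of the fold, and shares of cells are given below. Because saline dendritic cells held 0 UMIs and the gene passed the filter through LPS libraries, no test is given.

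The Hamp UMIs came from part of the dendritic cells. They lay in 44 of 230 LPS dendritic cells, 19.1% (95% exact binomial interval 14.3% to 24.8%, counting error only), with up to 12 in 1 cell, and in 0 of 94 saline cells, which by 3 counts allows a share of cells with a UMI of up to 3.19% (exact upper limit 3.85%). All 134 were in the 217 LPS dendritic cells with a UMI of Ccr7, the chemokine receptor of migratory dendritic cells, and none in the 13 without. Ccr7 is 1 of the 10 markers of the dendritic gate, and with 13 cells the absence of Hamp in the rest says little. Saline dendritic cells with a Ccr7 UMI numbered 15, with 0 Hamp UMIs among 48691, where 3 counts would be 61.6 CPM. The LPS level in Ccr7-bearing cells was 229 CPM, with Hamp in 20.3% of the cells. As the UMIs lay several to a cell, 0 of 15 cells sets no lower limit to a fold there. The dendritic class also differed in its makeup, since Cd209a was found in 41 of 94 saline and 6 of 230 LPS cells, Xcr1 in 20 and 0, and Fscn1 in 28 and 207. A change within one kind of dendritic cell and a change of kinds cannot be told apart.

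Outside dendritic cells Hamp was sparse. Of the 244 Hamp UMIs in all LPS cells, 54.9% were in dendritic cells. The 43993 LPS microglia held 33 and the 44033 saline microglia 32, never more than 1 per cell, or 0.0750% and 0.0727% of cells. LPS endothelial cells held 17 UMIs in 5 of 269 cells, with up to 9 in 1 cell, and their level was 20.9 CPM in LPS DMSO replicate 1, 3.90 CPM in LPS inhibitors replicate 2 and 0 in the other libraries. LPS mural cells held 4 UMIs in 2 of 70 cells, all in LPS DMSO replicate 1 (26.0 CPM), and LPS T-cells 5 UMIs in 2 of 273 cells, all in LPS inhibitors replicate 2 (13.9 CPM), whereas saline endothelial cells, mural cells and T-cells held 0. Free RNA held 0.218 to 0.517 CPM of Hamp in saline and 0.800 to 2.07 CPM in LPS libraries. The paralog Hamp2 had 4 UMIs over all gated cells.

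Ferroportin, the iron exporter, was lower in microglia, macrophages and endothelial cells after LPS. Slc40a1 in microglia was 151, 118, 149 and 121 CPM in the saline libraries (DMSO replicates, then inhibitors) and 4.23, 3.78, 4.37 and 3.65 CPM in the LPS libraries in the same order. The log2 fold change was -4.31 ± 0.11 (edgeR adjusted p = 3.8e-11), and the 2 sets of libraries did not overlap. In macrophages it was 273, 237, 237 and 215 CPM in saline (1165 UMIs) and 1.20, 8.31, 2.97 and 1.35 CPM in LPS libraries (9 UMIs), with no overlap. In endothelial cells it went from 304, 282, 210 and 222 CPM to 10.4, 3.95, 16.0 and 3.90 CPM (-4.59 ± 0.28). These LPS levels lay within or below the range of free RNA, which held 4.20 to 18.4 CPM of Slc40a1 in LPS libraries. The share of thinned cells with an Slc40a1 UMI was 9.0% to 11% in saline and 0.26% to 0.43% in LPS microglia, and 13.7% to 17.2% and 0% to 0.97% in macrophages.

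Monocyte Slc40a1 was low in saline, at 40.9, 10.7, 12.7 and 9.62 CPM, below the 68.6 to 117 CPM of free RNA, and measured 0.956 to 1.72 CPM after LPS, on 32 and 15 UMIs. With free RNA subtracted it no longer passed the filter in monocytes or mural cells. Mural cells went from 58 UMIs in the saline libraries (29.4 to 57.7 CPM) to 0 in the 3 LPS libraries. Neutrophils still held the transcript. Their Slc40a1 measured 84.0 and 121 CPM in saline DMSO, 256 and 141 in saline inhibitors, 100.2 and 63.2 in LPS DMSO, and 64.4 and 62.4 in LPS inhibitors, so that the groups overlapped. The log2 fold change of -0.76 ± 0.27 (edgeR adjusted p = 0.048) was lost when any of 6 libraries was left out (every one but replicate 1 of saline DMSO and LPS DMSO, -0.76 to -0.54, edgeR adjusted p = 0.0886 to 0.185), with no filter on low counts (-0.53, edgeR adjusted p = 0.333), with DESeq2 (-0.67, adjusted p = 0.179), and with free RNA subtracted (-0.71, edgeR adjusted p = 0.12). The LPS neutrophil levels were above the 4.20 to 18.4 CPM of free RNA and above all LPS libraries of every other class.

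Ceruloplasmin, the copper ferroxidase, rose in microglia from a level near 0. Cp measured 4.97 and 3.78 CPM in saline DMSO, 4.16 and 3.0 in saline inhibitors, 324 and 278 in LPS DMSO, and 411 and 336 in LPS inhibitors. The log2 fold change was 7.15 ± 0.18 (edgeR adjusted p = 4.9e-11). Thinned microglia with a Cp UMI made up 0.23% to 0.38% of saline and 17.3% to 23.6% of LPS cells. Free RNA held 23.2 to 38.1 CPM of Cp in saline and 210 to 341 CPM in LPS libraries, above the saline level and overlapping the LPS level of microglia, and with it subtracted the microglial change was 8.40 (edgeR adjusted p = 8.3e-11).

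Macrophages, endothelial cells and mural cells expressed Cp in saline and had smaller log2 fold changes than microglia, though not smaller rises in CPM. In macrophages it went from 273, 214, 233 and 218 CPM to 887, 776, 745 and 946 CPM (2.21 ± 0.16, edgeR adjusted p = 4.4e-09). In endothelial cells it went from 286, 223, 349 and 241 to 1081, 1036, 913 and 1037 CPM (2.04 ± 0.17), and in mural cells from 226 to 328 CPM to 1424, 1028 and 999 CPM (2.13 ± 0.28). Every library of these 3 classes lay above every library of the other classes, in saline and after LPS. Monocytes went from 4.28 to 11.1 to 37.3 to 67.9 CPM (3.12 ± 0.29). Neutrophils measured 7.0 to 16.0 CPM in saline and 27.2 to 49.3 CPM after LPS, on 9 and 89 UMIs. T-cells measured 0 to 8.07 CPM in saline and 38.2, 6.51, 41.2 and 41.8 CPM after LPS, on 11 and 33 UMIs, and LPS DMSO replicate 2 lay within the saline range. Dendritic cell Cp was 130, 78.3, 337 and 96.5 CPM in LPS libraries, and in the cells with a Ccr7 UMI alone 89.2, 21.5, 336 and 66.8 CPM. It passed the filter there through LPS libraries, being 14.7 CPM in 1 saline library and 0 in the other 3. These are 1 saline and 100 LPS UMIs, a ratio of summed levels of 60.0 (95% exact interval 10.5 to 2393, counting error only). With free RNA subtracted, Cp no longer passed the filter in neutrophils, dendritic cells or T-cells. B-cells measured 20.1, 3.50, 2.49 and 3.21 CPM in saline and 23.5, 0, 149 and 185 CPM after LPS, so that the groups overlapped, and LPS DMSO replicate 2 lay below every saline library. Cp passed the filter there only with the capture day as a replicate block, through LPS libraries alone, so no test is given.

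Ferritin heavy chain, the subunit that oxidizes iron for storage, rose in all 10 classes. Microglial Fth1 went from 1872, 2119, 1923 and 2296 CPM in saline to 20387, 24096, 18683 and 20609 CPM in LPS libraries (log2 fold change 4.10 ± 0.27, edgeR adjusted p = 4.2e-08). Macrophage Fth1 was 4435 to 5164 CPM in saline, above every other class, and 16163 to 23131 CPM after LPS (2.42 ± 0.20). The 2 classes overlapped after LPS. Monocytes (2.12 ± 0.22), neutrophils (2.39 ± 0.26), dendritic cells (2.74 ± 0.21), T-cells (2.10 ± 0.17), endothelial cells (2.17 ± 0.21) and mural cells (2.16 ± 0.27) each had all LPS libraries above all saline libraries. In dendritic cells with a Ccr7 UMI alone, Fth1 was 2834, 2687, 1112 and 1034 CPM in saline libraries, on 1 to 6 cells each. It was 7714, 7596, 10179 and 12139 CPM there in LPS libraries. Free RNA held 2699 to 3358 CPM of Fth1 in saline and 20232 to 22437 CPM in LPS libraries, above the LPS level of every class but microglia and macrophages.

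Fth1 was less certain in B-cells and NKs. B-cell Fth1 was 1949, 1774, 2273 and 2389 CPM in saline and 9070, 1929, 5210 and 9851 CPM in LPS libraries, where LPS DMSO replicate 2 lay within the saline range. The change of 1.74 ± 0.36 (edgeR adjusted p = 0.0018) was no longer called with free RNA subtracted (1.5, edgeR adjusted p = 0.218), with a stricter gate (0.46, edgeR adjusted p = 0.301) or without LPS DMSO replicate 1 (1.19, edgeR adjusted p = 0.0797). NK Fth1 (1.19 ± 0.23, edgeR adjusted p = 0.0015) was not called with free RNA subtracted (0.88, edgeR adjusted p = 0.0559).

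Ferritin light chain, the subunit that helps form the iron core, moved less. Microglial Ftl1 was 763, 910, 739 and 971 CPM in saline and 1889, 2197, 1216 and 1381 CPM in LPS libraries (1.69 ± 0.22, edgeR adjusted p = 2e-05), with LPS inhibitors below LPS DMSO. Monocyte Ftl1 went from 988 to 1316 to 1740 to 2473 CPM (0.99 ± 0.22), and neutrophil Ftl1 from 578 to 920 to 1160 to 1270 CPM (0.96 ± 0.22). With inhibitor libraries only, neither was called (0.55, edgeR adjusted p = 0.13, and 0.66, edgeR adjusted p = 0.222). Macrophage Ftl1 went the other way in CPM, from 2040 to 3188 to 1425 to 2285, and was not called with TMM scaling (-0.26 ± 0.21, edgeR adjusted p = 0.32) but was called lower with total counts alone (-0.64, edgeR adjusted p = 0.00462). Dendritic cells had 0.77 ± 0.31 (edgeR adjusted p = 0.058), and were called in 6 of 18 alternatives. These were the capture day as a replicate block (0.85, edgeR adjusted p = 0.00462), no filter (1.0), no cells of highest UMI count (1.35), inhibitor libraries only (1.10), and leaving out LPS DMSO replicate 1 (1.02, edgeR adjusted p = 0.0158) or saline DMSO replicate 2 (1.24, edgeR adjusted p = 0.00423). T-cells were called (0.67 ± 0.19, edgeR adjusted p = 0.017), but not in 7 of 19 alternatives. These were the stricter gate (0.52, edgeR adjusted p = 0.0948), no filter (0.61, edgeR adjusted p = 0.0524), free RNA subtracted (0.62, edgeR adjusted p = 0.0537), inhibitor libraries only (0.37, edgeR adjusted p = 0.382), and leaving out LPS DMSO replicate 1 (0.50, edgeR adjusted p = 0.148), saline DMSO replicate 2 (0.62, edgeR adjusted p = 0.0668) or LPS inhibitors replicate 2 (0.67, edgeR adjusted p = 0.0686). Ftl1 is uncertain because Ftl1-ps1, a near-identical copy, held 262905 UMIs beside the 549532 of Ftl1 in gated cells. Ftl1-ps1 made up 34.2% to 39.4% of the sum of both in saline microglia and 28.3% to 32.1% in LPS microglia, and the sum rose there from 1167 to 1476 CPM to 1790 to 3190 CPM. In macrophages the sum went from 3618 to 5031 CPM in saline to 2323 to 3348 CPM after LPS. Those groups did not overlap, and the sum was not tested.

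The transferrin receptor was called higher in microglia, macrophages and monocytes and lower in endothelial cells. Microglial Tfrc was 8.89, 10.2, 9.17 and 7.52 CPM in saline and 22.9, 22.5, 32.9 and 21.5 CPM in LPS libraries (2.22 ± 0.14, edgeR adjusted p = 2.7e-08). Monocyte Tfrc was 14.9, 4.28, 5.76 and 0 CPM in saline and 45.1, 46.9, 47.5 and 35.2 CPM in LPS libraries (3.15 ± 0.41, edgeR adjusted p = 3.5e-05). Endothelial Tfrc was 107, 156, 85.3 and 145 CPM in saline and 31.3, 39.5, 39.9 and 15.6 CPM in LPS libraries (-1.82 ± 0.27, edgeR adjusted p = 2e-05). None of the 3 classes had libraries that overlapped between saline and LPS. In saline the endothelial class stood above all others, and after LPS it overlapped monocytes. Brain vessels are known to carry transferrin through this receptor. Macrophage Tfrc was called higher (1.11 ± 0.28, edgeR adjusted p = 0.0031) although the libraries overlapped, at 13.1 to 21.6 CPM in saline and 15.0 to 33.7 CPM after LPS. Mural cells held 40 Tfrc UMIs in saline and 4 in LPS libraries.

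Slc11a1 encodes NRAMP1, a metal pump of phagosomes in phagocytes, and C57Bl/6 mice are known to carry an allele that does not work. Its transcript was highest in microglia and macrophages, which overlapped. It went from 146, 169, 171 and 193 CPM to 229, 282, 243 and 238 CPM in microglia (1.30 ± 0.15, edgeR adjusted p = 7.8e-06). In neutrophils it went from 10.5, 69.3, 64.0 and 45.7 CPM to 153, 130, 218 and 190 CPM (2.00 ± 0.33, edgeR adjusted p = 0.00035). LPS neutrophils overlapped macrophages, which saline neutrophils had not. Macrophages (0.94 ± 0.18) and monocytes (1.14 ± 0.23, not called with inhibitor libraries only, 0.72, edgeR adjusted p = 0.0621) were called, and T-cells (0.51 ± 0.42) and mural cells (-0.12 ± 0.60) were not.

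Heme oxygenase 1, which breaks down heme and frees its iron, rose in monocytes and microglia with no overlap between groups. Monocyte Hmox1 was 111, 40.7, 65.7 and 73.1 CPM in saline and 526, 380, 471 and 487 CPM in LPS libraries (2.88 ± 0.24, edgeR adjusted p = 4.5e-07), above every other class after LPS. Microglial Hmox1 was 36.7, 28.1, 33.9 and 27.9 CPM in saline and 134, 112, 89.5 and 89.7 CPM in LPS libraries (2.49 ± 0.13). Neutrophil Hmox1 measured 8.0 to 21.0 CPM in saline (15 UMIs) and 61.1 to 74.4 CPM after LPS (174 UMIs), and endothelial Hmox1 7.5 to 10.6 CPM (38 UMIs) and 21.3 to 97.4 CPM (83 UMIs). Both reached the level of the filter in LPS libraries alone. Macrophages had the highest saline level, at 239, 120, 178 and 120 CPM, and measured 151, 249, 163 and 173 CPM after LPS, so that the groups overlapped. Their change of 0.53 ± 0.20 (edgeR adjusted p = 0.039) was lost in 12 alternatives, among them 5 of the 8 that left out 1 library (all but saline DMSO replicate 1, LPS DMSO replicate 1 and saline inhibitors replicate 1, 0.36 to 0.58, edgeR adjusted p = 0.0552 to 0.167), total counts alone (0.12, edgeR adjusted p = 0.636) and DESeq2 (0.58, adjusted p = 0.0548). LPS T-cells gave uneven values of 195, 0, 5.89 and 167 CPM, 2 of them below the 7.91 to 12.1 CPM of the saline libraries. Hmox1 passed the filter there only with the capture day as a replicate block, through LPS libraries alone, so no test is given. Dendritic cells held 0 in saline and 19.1 to 51.5 CPM in LPS libraries, also not tested.

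The changes were then set against those of microglia in the same libraries, by edgeR's test of class by in vivo treatment with the library as a block. Of 46 pairs of gene and class, those that reached the level of the filter in one group alone left out, 36 were called, 6 with a change above that of microglia and 30 below. Among all genes, 22.4% differed from microglia in macrophages, 19.8% in monocytes, 14.1% in neutrophils, 9.12% in dendritic cells, 10.1% in B-cells, 12.8% in T-cells, 7.64% in NKs, 27.4% in endothelial cells and 12.5% in mural cells. The edgeR fit took the spread of each gene wholly from the trend over genes, so the exact two-sided permutation test of the log2 ratio of class to microglia over libraries is given beside it, whose smallest possible p with 4 against 4 libraries is 0.0286. That ratio is of plain CPM, whereas edgeR's difference is TMM-scaled, so this p and the difference rest on different scalings. The change in ratio and edgeR's value were -3.24 and -4.94 for Mt2 in monocytes and 0.67 and 0.63 for Mt1 in dendritic cells. For Slc11a1 in macrophages they were 0.016 and -0.37, and for Mt1 in endothelial cells 0.66 and -0.08. Total counts alone were not run here, so the split of 6 and 30 was not tested under that scaling.

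**Figure D3:**
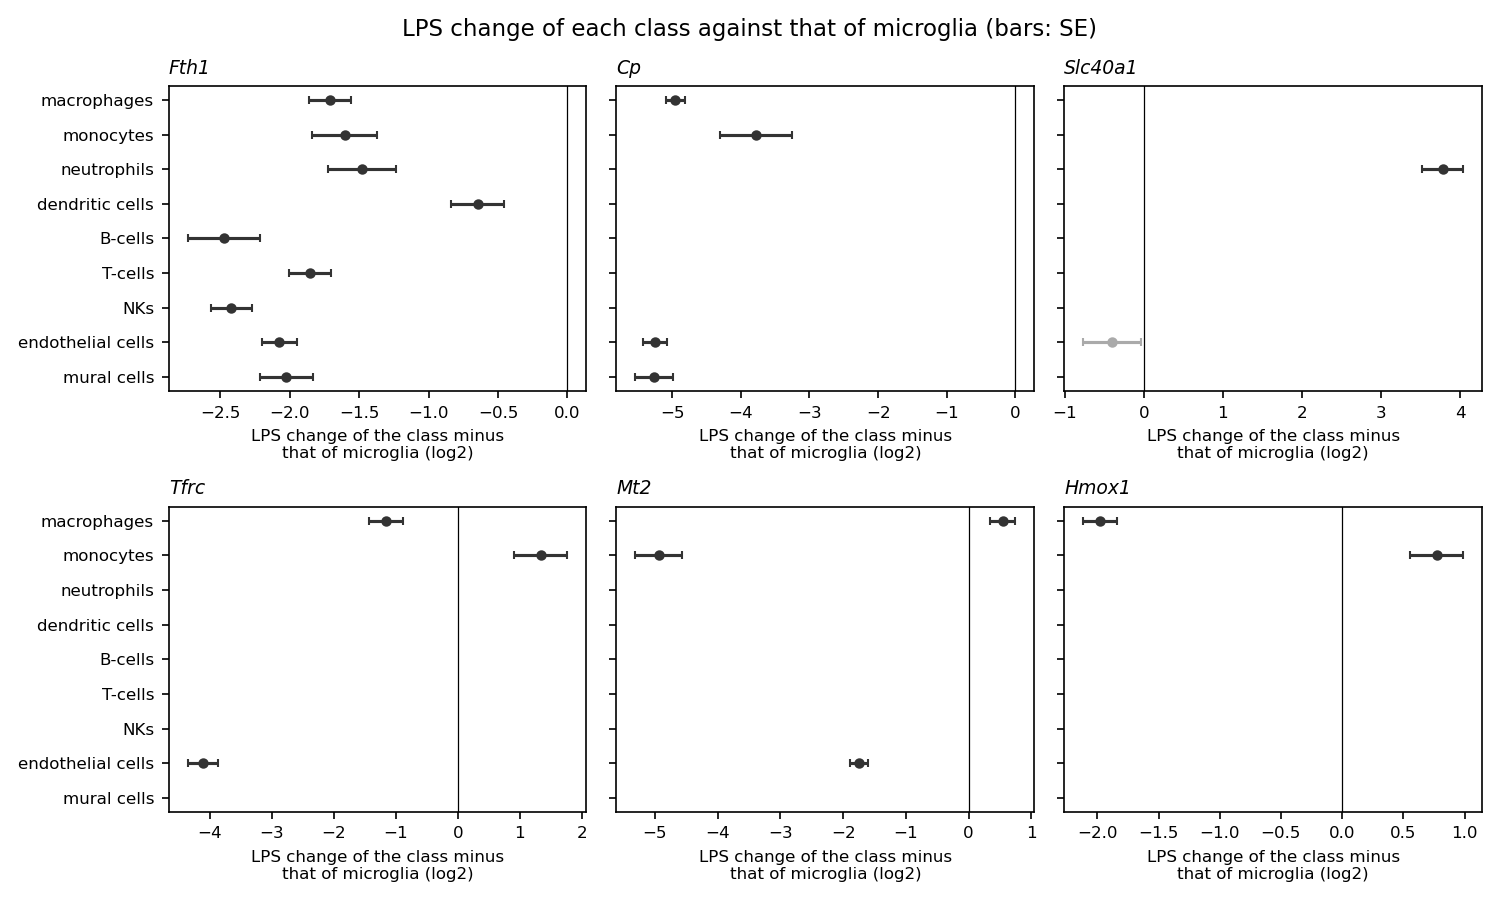
Difference between the log2 fold change of each class (vertical axis) and that of microglia after LPS (horizontal axis), with bars for the SE, dark where edgeR's adjusted p was under 0.05 and grey where it was not. Fth1 lies left of 0 in all 9 classes and Cp left of 0 in all 4 drawn, while Slc40a1 lies to the right of 0 in neutrophils. Pairs that reached the level of the filter in one group alone are not drawn.

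Fth1 rose less than in microglia in 9 of 9 classes, with differences from -0.65 ± 0.19 in dendritic cells to -2.47 ± 0.26 in B-cells, and in each the library ratios did not overlap (exact permutation p = 0.0286). Cp rose less in 4 of 4 classes, with differences of -4.96 ± 0.14 in macrophages and -5.25 ± 0.17 in endothelial cells (exact permutation p = 0.0286 in each of the 4). Slc40a1 fell less in neutrophils, by 3.78 ± 0.26 (exact permutation p = 0.0286). Tfrc differed in endothelial cells by -4.12 ± 0.24 (exact permutation p = 0.0286) and in monocytes by 1.34 ± 0.43 (exact permutation p = 0.0571). Hmox1 rose less in macrophages (difference -1.98 ± 0.14) and more in monocytes (0.77 ± 0.22) (exact permutation p = 0.0286 for both). Mt1 rose less in monocytes (difference -1.51 ± 0.25) and more in mural cells (1.71 ± 0.25) (exact permutation p = 0.0286 for both). Mt2 rose less in monocytes (difference -4.94 ± 0.37), although the ratios overlapped (exact permutation p = 0.0857). Ftl1 differed in macrophages by -1.97 ± 0.13 and Slc11a1 in neutrophils by 1.01 ± 0.29 (exact permutation p = 0.0286 for both).

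**Figure D4:**
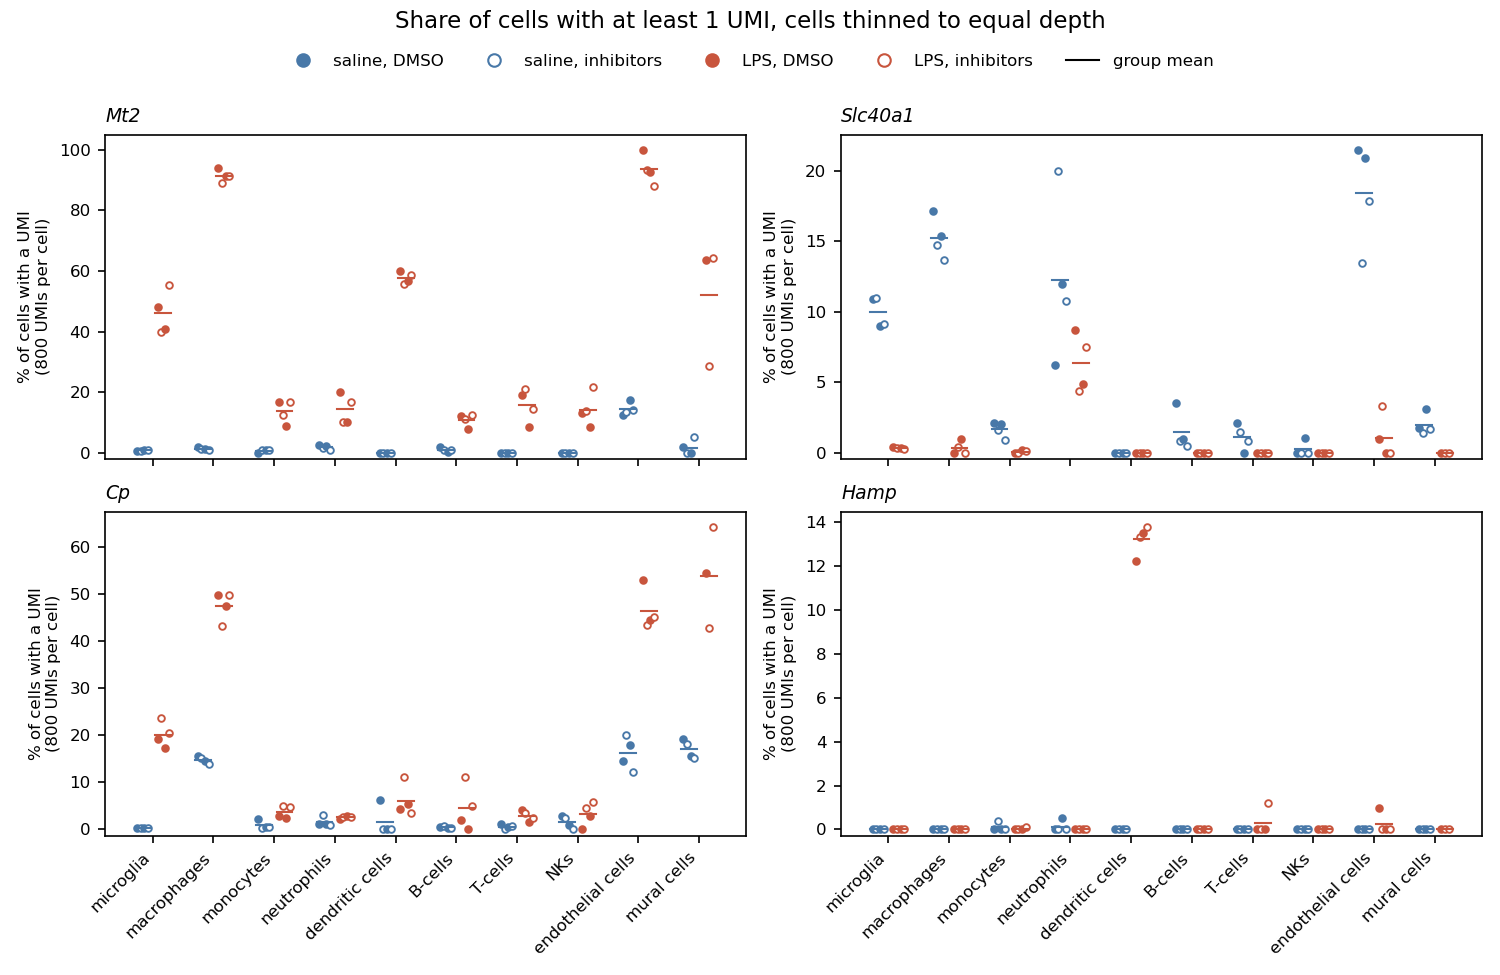
Percent of cells with at least 1 UMI of Mt2, Slc40a1, Cp and Hamp (vertical axes, from 0) in each class and library after each cell was thinned to 800 UMIs, with filled points for DMSO, open points for inhibitors, blue for saline, red for LPS and a bar at the mean. Mt2 reaches 89.0% to 94.0% of LPS macrophages, Slc40a1 drops to between 0.26% and 0.43% of LPS microglia, and Hamp reaches 12.2% to 13.8% of LPS dendritic cells.

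The shares of cells followed the levels. With cells thinned to 800 UMIs, Hamp was found in 12.2% to 13.8% of LPS and in 0% of saline dendritic cells per library, Hmox1 in 16.5% to 19.0% of LPS and 3.02% to 7.45% of saline monocytes, and Fth1 in 99.9% to 100% of LPS and 70.5% to 77.0% of saline microglia. Slc40a1 was found in 6.25% to 20% of saline and 4.41% to 8.71% of LPS neutrophils, which overlapped. None of the 100 pairs of gene and class passed the exact two-sided permutation test after Benjamini-Hochberg adjustment, where the smallest exact p this design allows, 0.0286, gave an adjusted p of 0.0539 (0.0510 before thinning).

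The dissociation inhibitors were tested for the same genes. Between DMSO and inhibitor libraries, edgeR called 0 of 71 pairs of gene and class, with 7 at an unadjusted p under 0.05, and DESeq2 called 0 of 89, also with 7. The share of all genes called was 0.360% for microglia, 0.588% for macrophages, 0.102% for monocytes, 0.249% in neutrophils, 0.703% in dendritic cells, 0.130% in B-cells, 0.129% in T-cells, 0.0364% in NKs, 0.0431% in endothelial cells and 0.0308% in mural cells. In microglia the log2 differences (DMSO over inhibitors) ran from -0.18 ± 0.27 for Mt2 to 0.26 ± 0.21 for Ftl1. Over the 10 classes 188 genes were called, and 330 with the capture day as a replicate block. The lowest p was that of Mt2 in NKs, at -1.66 ± 0.42 (edgeR adjusted p = 0.513), which was called when no filter on low counts was used (-1.73, edgeR adjusted p = 0.0351) or without saline DMSO replicate 1 (-1.77, edgeR adjusted p = 0.048).

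Whether the LPS change depended on the inhibitors was tested by the interaction of both treatments. It was called for none of the 10 genes in any class by edgeR, with 6 pairs at an unadjusted p under 0.05, while the share of all genes called was 0.0180% for microglia, 0.0259% for monocytes, 0.0433% in neutrophils, 0.0765% in dendritic cells, 0.0373% in B-cells, 0.0202% in endothelial cells and 0% in macrophages, T-cells, NKs and mural cells. Over the 10 classes 16 genes were called, and 119 with the capture day as a replicate block. The lowest p was that of Cp in B-cells, where LPS DMSO measured 23.5 and 0 CPM and LPS inhibitors 149 and 185 CPM. Cp reached the level of the filter there in LPS inhibitors libraries alone, so its fold and p are not given. With the capture day as a replicate block it was called, which is a description only.

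Other genes of metal metabolism were counted from 6 lists, whose genes could also pass the filter through one group alone, so the counts and fold changes are a description. The shares of a list called are read against 62.7% of all genes in microglia, 49.2% in macrophages, 33.4% in monocytes, 28.2% in neutrophils and 39.5% in endothelial cells. Of 22 zinc and copper transport genes, all tested in microglia, 13 rose and 6 fell (86.4% called, median log2 fold change 0.69, all genes -0.20), but with total counts alone 5 rose and 9 fell. Slc39a14, a zinc and iron importer known from the acute phase in liver, rose in microglia (3.78 ± 0.15), macrophages (3.79 ± 0.25) and monocytes (4.10 ± 0.50). In endothelial cells its mean level was 5.11 CPM in saline and 76.5 CPM in LPS libraries. Slc39a14 reached the level of the filter there in LPS libraries alone, so no fold is given. The copper transporter gene Slc31a2 rose in microglia (3.46 ± 0.13), macrophages (2.60 ± 0.17) and monocytes (2.19 ± 0.20). In endothelial cells 4 of 20 rose and 6 fell, among them the zinc importers Slc39a10 (-2.78 ± 0.20) and Slc39a8 (-2.14 ± 0.24). In macrophages 7 of 21 rose and 3 fell, in monocytes 6 of 20 and 2, and in neutrophils 1 of 11 and 1, and with total counts alone the macrophage counts were 5 and 7 and the neutrophil counts 0 and 2. The shares called were 47.6% in macrophages, 40% in monocytes, 18.2% in neutrophils and 50% in endothelial cells, near or below those of all genes in macrophages and neutrophils.

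Of 24 genes of iron uptake, regulation and export, 23 were tested in microglia, where 11 rose and 6 fell with TMM (73.9% called, median 0.42) and 4 rose and 12 fell with total counts alone (median -0.34). Slc11a2, the iron importer DMT1, rose in microglia (2.77 ± 0.14) and macrophages (1.79 ± 0.20). Fbxl5, which degrades an iron regulatory protein when iron is plentiful, rose in macrophages (1.78 ± 0.17), monocytes (2.95 ± 0.25), neutrophils (2.14 ± 0.21) and endothelial cells (1.25 ± 0.19). Ncoa4, the receptor that delivers ferritin for breakdown, fell in all 5 classes examined, with -0.72 ± 0.10 in microglia and -2.46 ± 0.18 in macrophages. Steap4, a metalloreductase, measured 0 to 4.06 CPM in saline and 53.2 to 141 CPM in LPS macrophages, few UMIs in saline, and 5.64 to 13.7 CPM in LPS free RNA. Trf, transferrin itself, fell in macrophages (-2.40 ± 0.15), monocytes (-2.11 ± 0.20) and neutrophils (-1.73 ± 0.26). Over the list, 6 of 15 rose and 2 fell in macrophages (5 and 6 with total counts alone), 3 of 16 and 3 in monocytes, 1 of 10 and 2 in neutrophils, and 3 of 14 and 2 in endothelial cells. These were 53.3%, 37.5%, 30% and 35.7% of the genes tested, near the shares of all genes.

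Of 25 genes that govern hepcidin in liver, 23 were tested in microglia, and 3 rose and 11 fell (60.9% called, near the share of all genes, median -0.58). In macrophages 4 of 16 rose and 6 fell, in monocytes 3 of 17 and 5, in neutrophils 2 of 11 and 2, and in endothelial cells 7 of 18 and 5. These were 62.5%, 47.1%, 36.4% and 66.7% of the genes tested. With total counts alone the counts were 3 and 20 in microglia, 3 and 9 in macrophages and 5 and 6 in endothelial cells. Socs3, induced by STAT3, rose in microglia (4.69 ± 0.20), macrophages (4.76 ± 0.28), monocytes (2.43 ± 0.23) and endothelial cells (4.19 ± 0.26). Il6, the cytokine that drives hepcidin in liver, measured 0 to 2.45 CPM in saline and 90.5 to 285 CPM in LPS endothelial cells, and 0 to 3.85 and 6.97 to 24.1 CPM in monocytes, few UMIs in saline in both. Bmp2 was lower in macrophages and Hfe, the hemochromatosis gene, in macrophages (-1.90 ± 0.16), monocytes (-2.31 ± 0.24), neutrophils and endothelial cells (-1.72 ± 0.27). Because a gene could pass the filter through saline libraries alone, no fold is given for Bmp2 or for Hfe in neutrophils.

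Of 28 genes of heme handling and the NRF2-BACH1 pathway, 14 rose and 5 fell in microglia with TMM (67.9% called, median 0.32), and 9 rose and 14 fell with total counts alone. In macrophages 6 of 23 rose and 7 fell, in monocytes 12 of 25 and 2, in neutrophils 2 of 17 and 3, and in endothelial cells 10 of 23 and 3. These were 56.5%, 56%, 29.4% and 56.5% of the genes tested, near the shares of all genes in microglia, macrophages and neutrophils. With total counts alone the counts were 4 and 11 in macrophages, 8 and 3 in monocytes, 2 and 5 in neutrophils and 5 and 4 in endothelial cells. Hp, the hemoglobin-binding haptoglobin, rose from 1.18 to 3.90 CPM to 155 to 239 CPM in microglia and from 0.742 to 4.17 to 626 to 1443 CPM in macrophages. It measured 3295 to 4560 CPM in LPS neutrophils and 246 to 344 CPM in LPS free RNA, and the part of free RNA in these changes was not tested. The cystine transporter gene Slc7a11 rose in microglia (4.13 ± 0.19). Blvrb, a biliverdin reductase, fell in macrophages (-2.70 ± 0.19) and rose in monocytes (1.76 ± 0.21), where Spic, a factor of red pulp macrophages, rose too (2.90 ± 0.42).

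Among 8 metal-binding host defence genes, Lcn2, whose product lipocalin 2 captures bacterial siderophores, rose in microglia (9.52 ± 0.59), macrophages (11.23 ± 0.49), monocytes (4.19 ± 0.38), neutrophils (1.83 ± 0.42) and endothelial cells (10.25 ± 0.42). Lcn2 measured 4744 to 5405 CPM in LPS free RNA, above the 3696 to 4344 CPM of LPS microglia and below the 11928 to 13218 CPM of LPS macrophages, and the part of free RNA in these changes was not tested. Ltf, lactoferrin, fell in neutrophils (-3.13 ± 0.36). The list had 4 of 7 higher and 1 lower in microglia, 2 of 5 and 2 in macrophages, 1 of 5 and 2 in monocytes, 1 of 7 and 4 in neutrophils, and 3 of 5 and 1 in endothelial cells. Of the few genes tested, 71.4%, 80%, 60%, 71.4% and 80% were called. Of 14 glucocorticoid-responsive genes, 10 rose and 1 fell in microglia (78.6% called), and 10 of 13, 7 of 13, 7 of 9 and 9 of 14 rose with none lower in macrophages, monocytes, neutrophils and endothelial cells. These were 76.9%, 53.8%, 77.8% and 64.3% of the genes tested. With total counts alone 10 rose and 2 fell in microglia, 9 and 1 in macrophages, 6 and 1 in monocytes, 4 and 0 in neutrophils and 9 and 0 in endothelial cells. The median log2 fold change of that list was 2.26 in microglia, 2.32 in macrophages and 1.74 in endothelial cells, against -0.20, -0.04 and -0.02 for all genes. Fkbp5 rose by 4.19 ± 0.27 in endothelial cells and Cdkn1a by 4.21 ± 0.17 in microglia.

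The genes whose pattern was most like that of each gene were ranked by Pearson's r of log2 CPM over 79 sums of class and library, as a description, since these sums share libraries, depth and the LPS contrast. Mt1 was most like Mt2 (r = 0.90), then Nfkbia and Fth1 (both r = 0.84), and Mt2 after Mt1 was most like Sod2 and Nfkbia. Fth1 was most like Sod2 (r = 0.89), Mt1 and Sdc4, and Cp most like Vcam1 (r = 0.85), Mt2 and Ier3. Slc40a1 was most like Hacd4 (r = 0.81), Fmo5 and Zfp652, and Hamp most like Gm12979 (r = 0.73), Pcgf5 and B130046B21Rik. Slc11a1 was most like Tlr13 (r = 0.84), Hmox1 most like Atp6v0c (r = 0.76), and Ftl1 most like F630206G17Rik, Ftl1-ps1 and Grik3 (r = 0.89 each). Tfrc had no close match, its highest being Rnf103 (r = 0.59).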

How the data were processed

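Deposited files were raw UMI count matrices of genes by barcodes, 1 set per library. Per the labels and the study's methods, the authors processed reads with PIPseeker and its STAR aligner against a mouse genome of another build than the sequences shown, and analysed cells in Seurat (version 4). The counts were used as deposited, with no other normalization. The samples were 8 mouse libraries, 2 in each of 4 groups. Cells of at least 800 and under 45000 UMIs, at least 250 and under 6500 genes and under 5% mitochondrial UMIs were kept. Cell classes were rebuilt, because no annotation was used here. The microglial share of a cell was its share of UMIs from 10 microglial markers, relative to that of its library. Microglia needed 3 or more of their markers and a microglial share of at least 0.35. Every other list had to lie under 1.5 markers above what depth predicts. A cell entered another class with at least 3 of its markers, 2 or more above what depth predicts, and 1 or more ahead of other lists. Its microglial share had to be under 0.35. The stricter gate asked for 4 markers (5 for microglia), 3 or more above what depth predicts and 2 or more ahead of other lists. It set the microglial share at 0.2 and the limit of other lists in microglia at 1. The share of 0.2 is a looser limit for microglia. Saline libraries held 10268 to 13601 microglia under it, against 10099 to 13057 in the main gate. Cells that met 2 classes, or another class with 1% or more erythrocyte marker UMIs, were left out (5720). So were 10328 cells that met no class, 3.65% to 5.77% of cells in saline and 10.6% to 13.8% in LPS libraries. The limits of the gate were set after marker counts had been seen. No doublet caller was run.

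UMIs were summed per class and library with at least 10 cells and tested with edgeR 4.0.16 (filterByExpr, TMM, glmQLFit and glmQLFTest) in R 4.3.3, 1 fit per class over all libraries, with both treatments as terms. Adjusted p-values are Benjamini-Hochberg over all genes tested in the class. Alternatives were DESeq2 1.42.0, RLE factors, no filter, a replicate block, each library left out, free RNA subtracted (profile of barcodes of 1 to 99 UMIs, amount from Ttr), a stricter gate, no cells of highest UMI count (8% of each library), thinning to 800 UMIs per cell, inhibitor libraries only and, added after the data were seen, total counts alone and Ccr7-bearing dendritic cells. The replicate number equals the batch in the labels, and deviations of same-numbered microglial samples from their group means correlated at 0.0905 to 0.54. Pattern likeness used log2(CPM + 0.5) and ratios to microglia log2(CPM + 1). The script was tested on simulated counts. The text names all 10 genes, and from each list and 5 classes up to 3 called genes per direction with the largest change and no overlap between libraries, from which examples are given. The genes and the lists were chosen with earlier results of these data known. Pairs of gene and class that reached the level of the filter in no library of one group, a limit set after the data were seen, are given by their levels and UMIs. Intervals and floors cover counting error only. Sequences come from RefSeq (GRCm38.p6) and GENCODE (GRCm38), and Slc40a1 and Hmox1 had no promoter in the table used.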

Additional observations from a re-analysis of the deposited data

Results flagged for a closer look

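In groups of 4 libraries, 133 of which were examined by Dixon's criterion, 12 held a library that stood apart from the other 3, where chance gives about 5% of groups. Saline DMSO replicate 1 accounted for 7 of them. Its macrophages measured 627 CPM of Mt1 against 432 to 441 in the other saline libraries, 25.0 CPM of Mt2 against 16.3 to 17.8, and 21.6 CPM of Tfrc against 13.1 to 14.1. Its monocytes measured 40.9 CPM of Slc40a1 against 9.62 to 12.7, and its mural cells 57.7 CPM of Slc40a1 against 29.4 to 33.6 and 2192 CPM of Fth1 against 2818 to 2947. Its dendritic cells held 14.7 CPM of Cp, which was 1 UMI, where the others held 0.

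Saline inhibitors replicate 1 was high in neutrophils for Fth1, at 1840 CPM against 1215 to 1289, and for Cp, at 16.0 CPM against 7.0 to 8.32, which rested on 2 UMIs. LPS DMSO replicate 1 held 100.2 CPM of Slc40a1 in neutrophils against 62.4 to 64.4, LPS DMSO replicate 2 held 6.51 CPM of Cp in T-cells against 38.2 to 41.8, and LPS inhibitors replicate 1 held 32.9 CPM of Tfrc in microglia against 21.5 to 22.9. When the library that stood apart was left out, Slc40a1 no longer passed the filter in mural cells, and no call after LPS of the other pairs was lost.

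The LPS change differed from that of microglia by edgeR's interaction test in 9 of 9 classes for Fth1, 6 of 9 for Ftl1, 5 of 9 for Mt1, 3 of 3 for Mt2, 4 of 4 for Cp, 3 of 3 for Tfrc, 1 of 2 for Slc40a1, 3 of 5 for Slc11a1 and 2 of 2 for Hmox1, pairs that reached the level of the filter in one group alone left out. The library ratios did not overlap between saline and LPS in 9 of these classes for Fth1, 4 for each of Cp and Ftl1, 2 for each of Mt1 and Hmox1, 1 for each of Slc40a1, Tfrc and Slc11a1, and 0 for Mt2.

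Hamp was also found in cells that entered no comparison. Cells with the markers of 2 classes held 25 Hamp UMIs after LPS and 2 in saline, and cells of no class held 21 and 2.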

How the results depend on the processing

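No value called in the main fit or in an alternative changed direction between them. Changes of sign in values called in neither were not counted. Calls of the 10 genes after LPS numbered 46 to 67 over the alternatives, against 62. For all genes, thinning to 800 UMIs lowered the number called to 2241 in macrophages (from 4271), 2019 in monocytes (3604), 954 in neutrophils (1700), 192 in dendritic cells (843), 221 in B-cells (659), 228 in T-cells (952), 123 in NKs (570), 1086 in endothelial cells (3670) and 123 in mural cells (650). Thinning leaves fewer UMIs per gene. With inhibitor libraries only, 716 were called in neutrophils, 444 in T-cells, 264 in NKs, 2159 in endothelial cells and 93 in mural cells. That alternative also lost the calls of Slc11a1 in monocytes, Ftl1 in monocytes, neutrophils and T-cells, and Hmox1 in macrophages (0.54, edgeR adjusted p = 0.0822). The stricter gate gave 2489 in macrophages and 588 in T-cells, and could not be fitted for dendritic and mural cells. Subtracting free RNA gave 429 in B-cells, DESeq2 gave 357 in NKs, and leaving out the cells with most UMIs gave 2250 in endothelial and 373 in mural cells. Leaving out 1 library at a time gave 370 to 698 in B-cells, 550 to 915 in T-cells, 338 to 567 in NKs and 147 to 677 in mural cells. The counts moved past 1.5 times without LPS DMSO replicate 1 in B-cells (376), T-cells (550) and mural cells (147), without LPS inhibitors replicate 2 in B-cells (370) and NKs (338), and in mural cells without saline DMSO replicate 1 (422) or 2 (400) or saline inhibitors replicate 2 (418).

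Between DMSO and inhibitors, 188 genes were called over the classes, against 593 with no filter, 330 with the replicate block and 14 with ex vivo treatment as the sole term. Calls of the 10 genes there numbered 0, against 1 with no filter and 0 to 1 with a library left out. The interaction gave 16 genes and 0 of the 10, against 119 and 1 with the replicate block. With that block, the capture day, the interaction of Cp in B-cells was gained, and calls of the 10 genes after LPS numbered 65, with Ftl1 in dendritic cells gained and Cp in B-cells and Hmox1 in T-cells called, which had not passed the filter without the block. Cp in B-cells and Hmox1 in T-cells passed the filter through LPS libraries alone. Their calls are a description only. No other call of the 10 genes changed with the block. With RLE factors 3 of the differences from microglia were lost, Slc11a1 in macrophages (-0.12) and mural cells (-0.88) and Mt1 in B-cells (-0.48), and no other that is given changed its side of the threshold. The causes were not tested. Each group held 2 mice, and dendritic cells, NKs and mural cells held few cells, which limits what could be detected there.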

Other observations

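Further genes of the same lists that moved with no overlap between saline and LPS libraries are given as values. In microglia Atox1, a copper chaperone, measured 330 to 431 CPM in saline and 903 to 1159 CPM in LPS libraries (log2 fold change 2.17 ± 0.18), whereas in endothelial cells it measured 1280 to 1661 and 649 to 737 CPM (-0.97 ± 0.17). The class by treatment test covered all genes that passed the filter, but its value for Atox1 is not given here. Heph, the ferroxidase hephaestin, measured 336 to 389 and 483 to 603 CPM in microglia (1.36 ± 0.16). Lrp1, a receptor that takes up heme bound to hemopexin, measured 553 to 636 and 75.3 to 123 CPM in microglia (-1.76 ± 0.13) and 182 to 552 and 39.1 to 52.6 CPM in neutrophils (-2.44 ± 0.27). Bach1, a repressor of Hmox1 that heme releases, measured 90.7 to 107 and 31.9 to 44.4 CPM in microglia (-0.61 ± 0.11), 74.3 to 135 and 50.3 to 65.4 CPM in monocytes (-0.75 ± 0.21), and 36.0 to 63.0 and 76.4 to 108 CPM in neutrophils (1.16 ± 0.27).

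Among other genes tied to hepcidin signalling, Stat3 measured 77.9 to 93.4 and 113 to 142 CPM in microglia (1.34 ± 0.10) and 105 to 141 and 261 to 296 CPM in endothelial cells (1.32 ± 0.16). Il6st, the signalling chain of the receptor for Il6, measured 71.8 to 82.1 and 93.4 to 145 CPM in macrophages (1.05 ± 0.16) but 66.9 to 111 and 20.3 to 30.6 CPM in monocytes (-1.73 ± 0.22). S100a8, a subunit of the metal-binding calprotectin of neutrophils, measured 7.2 to 72.8 and 356 to 552 CPM in microglia (4.83 ± 0.49). Free RNA held 184 to 1004 CPM of it in saline and 603 to 1156 CPM in LPS libraries, and its part in that value was not tested.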
